A study of Mus musculus with 4 samples.

Results

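The 10 genes described here, *Cd34*, *Lgr5*, *Sox9*, *Lhx2*, *Nfatc1*, *Tbx1*, *Foxc1*, *Nfib*, *Runx1* and *Foxp1*, are surface markers and transcription factors of the bulge, the niche of the hair follicle stem cells (HF-SCs). They were chosen by name and by a mean above 0 in the deposited table, a rule that 10 of 10 named genes met. In all, 17044 of the 24421 genes listed had such a mean. The table came from bulk RNA-seq of HF-SCs sorted from mouse back skin at postnatal day 44, 2 libraries of control mice and 2 of mice in which *miR-205* had been induced for 2 d. Both groups carried the *Krt14-H2b-GFP* reporter, whose promoter is active in basal keratinocytes. The induced mice were labelled as fed doxycycline and carried a *pTRE2-miR-205* transgene switched on by a *Krt14*-driven reverse tetracycline transactivator, so that induction was not limited to the bulge. The control mice were labelled as untreated, whereas the extraction protocol has both groups on doxycycline, and the labels do not give the genotype of the controls. The labels give the strain as C57BL/6, while the methods describe the transgene as made in FVB mice and several lines as established, without naming the line sequenced. The sort took viable cells with high H2BGFP, integrin α6 and CD34 and no Sca1, so that *Cd34* codes for a protein used in the sort. The part of this gate in the level of *Cd34* was not tested.

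Bulge stem cells rest through most of the hair cycle and supply the cells of each new follicle when growth begins. Their identity is held by a network of transcription factors that bind shared enhancers, with some factors keeping the cells at rest and others helping them to enter growth. The value used throughout is the mean normalized count over the 4 libraries, which the authors obtained by dividing read counts by size factors. This mean does not separate induced from control libraries, and the columns of the table that do so hold the authors' own comparison and were not used. No difference between induced and control HF-SCs is therefore reported here. Undivided means and their percentiles place a gene among all genes by the reads it took, which also grow with its length. Ratios between genes and family shares are given after division by the length of annotated exon in kilobases, taken over all transcripts of a gene unless the longest transcript is named.

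The induced RNA is shown first because its pairing bases define the matches searched for in the members. The mature strand (GRCm38.p6 chr1:193507503-193507524, minus strand) is printed with the seed, bases 2 to 8, in capitals.
miR-205-5p: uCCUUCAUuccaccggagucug
A 7-base match to this seed reads ATGAAGG in a transcript. It was present in the longest annotated 3′UTR of 2 of the 10 members, *Nfib* and *Nfatc1*, and in 11.0% of the 14415 genes above 0 with an annotated 3′UTR. The longest 3′UTRs of the members had a median of 2008 bases, against 1023 bases for those genes. *Nfib*, with a 3′UTR of 6621 bases, held 2 matches in its last exon, exon 11 of 11, on the minus strand of the NCBIM37 build. Both are printed with the match in capitals, as the only matches in the longest 3′UTRs of the members apart from the 1 in *Nfatc1*.
Nfib, chr4:81938326-81938332: gttatattttATGAAGGttattttgtt
Nfib, chr4:81937958-81937964: gtgtgaaacgATGAAGGctgcagaaag
In *Nfib* 4 of 7 coding transcripts with a 3′UTR held the match, and in *Nfatc1* 1 of 4. A shorter transcript of *Foxp1* also held it, 1 of 9, although the longest 3′UTR of *Foxp1* did not. Without the match in the longest 3′UTR were *Cd34*, *Sox9*, *Lgr5*, *Lhx2*, *Runx1*, *Foxp1*, *Tbx1* and *Foxc1*. A match of letters describes the transcript and says nothing of whether *miR-205* binds there in these cells. The paper captured bound mRNAs by ligating them to the miRNA, and its list of bound cytoskeleton and adhesion genes includes *Runx1*. The longest 3′UTR of *Runx1* held no 7-base match but 1 shorter match of 6 bases. Since that list is limited to those gene groups, it leaves binding to the other members open.

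All 10 members were abundant in the sorted cells. Their mean normalized counts had a median of 3812, against 117 over all genes above 0, and the lowest member lay at percentile 86.1 of those genes. All 10 were above a mean of 50, as were 10342 genes in all. Per kilobase the members spanned 23.9-fold, from *Foxp1* to *Cd34*.

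**Figure D1:**
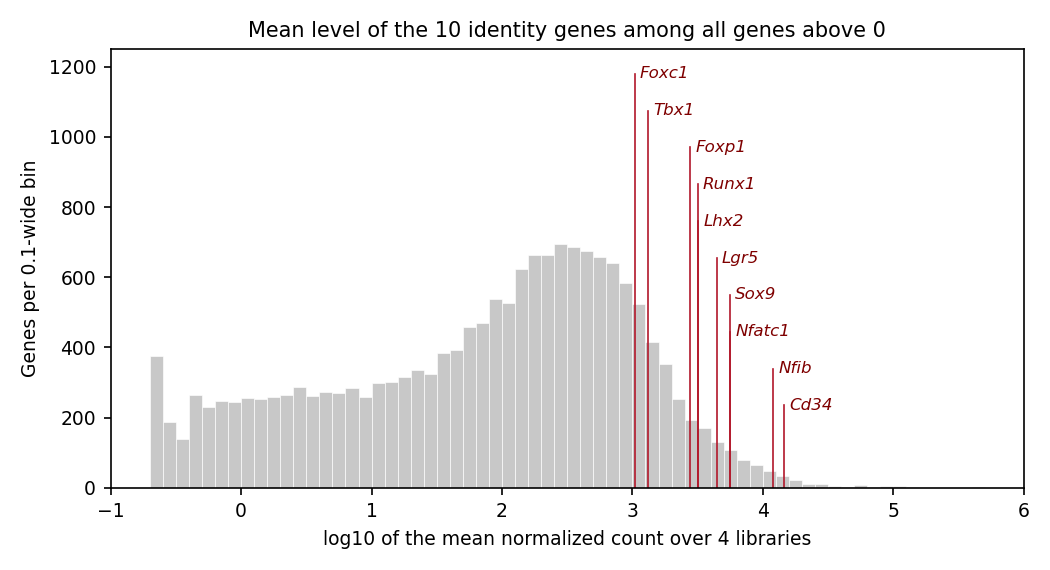
Histogram of the log10 of the authors' mean normalized count over 4 libraries for all 17044 genes above 0, in bins of 0.1, with a red line at each of the 10 identity genes (line heights only keep the names apart). All 10 lie in the upper part of the distribution, from *Foxc1* at a mean of 1042 to *Cd34* at 14575.

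*Cd34* (GRCm38.p6 chr1:194938821-194961292) codes for a sialomucin of the cell surface that marks bulge cells in the mouse. It was the most abundant member, with a mean normalized count of 14575 at percentile 99.5 of genes above 0. Its level per kilobase was 5561, which was 4.14 times that of *Sox9*, the next member. The other genes of the small CD34 family were far lower, with 59.3 per kilobase for *Podxl2* (endoglycan) and 7.82 for *Podxl* (podocalyxin), so that *Cd34* made up 98.8% of the summed level per kilobase of the family. *Podxl2* had 218, 250, 235 and 235 normalized counts in the 4 libraries, and *Podxl* had 38.8, 48.4, 53.8 and 30.7. These library values, like all those below, were recovered from the digits of the mean, and the libraries, named A to D in order of falling size factor, carry no group label. *Podxl2* was thus nearly level over the 4 libraries, while *Podxl* was lowest in library D.

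*Lgr5* (chr10:115450314-115587780) codes for a receptor of R-spondins, secreted proteins that strengthen WNT signalling, and marks bulge and hair germ cells. Its mean normalized count was 4432, at percentile 97.2, and its level per kilobase was 432. *Lgr4*, a broadly expressed receptor of the same group, had 365 per kilobase, and *Lgr6*, known from the isthmus of the follicle, had 200. *Lgr5* accounted for 43.3% of the summed level per kilobase of the 3 receptors. The library values of *Lgr5* could not be recovered, so the gap of 1.18-fold to *Lgr4* cannot be set against a spread. This gap also moved with the length used, to 2.18-fold per kilobase of the longest transcript. *Lgr4* had 2532 normalized counts in library A, 1965 in B, 1563 in C and 2524 in D, which is high in A and D and lowest in C. *Lgr6* had 695, 732, 810 and 804, and its level per kilobase lay below that of *Lgr4* in each of the 4 libraries. The R-spondin ligands were nearly unread in these cells, with means of 8.31 for *Rspo1*, 6.32 for *Rspo4*, 4.55 for *Rspo3* and 0.202 for *Rspo2*. The last value is 1 read in 1 library. *Rspo3* had 1, 1, 16 and 0 reads in libraries A to D, so that library C supplied nearly all of it. *Rnf43* and *Znrf3*, the membrane ubiquitin ligases that R-spondins hold in check, had means of 432 and 421.

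*Sox9* (chr11:112782210-112787757) is an HMG-box factor needed to form and keep bulge stem cells. Its mean normalized count of 5555 lay at percentile 97.9, and its level per kilobase of 1343 was the highest after *Cd34*. The other SOXE factors, *Sox10* of melanocytes and *Sox8*, had 9.72 and 3.01 per kilobase, and *Sox9* held 99.1% of the family. *Sox10* had 38, 38, 33 and 6 reads in libraries A to D, or 30.7, 32.2, 34.2 and 8.38 normalized counts. Library D was the low one for *Sox10*.

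*Lhx2* (chr2:38339271-38369737), a LIM-homeodomain factor that maintains bulge cells, had a mean normalized count of 3192, at percentile 95.9, and 1024 per kilobase, next after *Sox9*. It was in effect the only LHX gene read in the sort. *Lhx1*, *Lhx4*, *Lhx5* and *Lhx8* were listed at 0, *Lhx6* had 1 read in library A and 2 in library D, *Lhx9* had 2 reads in library A, and *Lhx3* had 1 read in library D. For *Lhx2* itself 2 sets of whole reads gave the printed mean with every library within 1.5-fold of it, and they cannot be told apart. The first set was 2897, 3269, 3055 and 3546 normalized counts in A to D, and the second was 2921, 3513, 2374 and 3959. In both sets library D was highest. LIM-homeodomain factors act with the adaptor LDB1, and *Ldb1* had a mean of 3491 and 974 per kilobase, against 1024 for *Lhx2*, whereas *Ldb2* had a mean of 5.94.

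*Tbx1* (chr16:18580979-18590671), a T-box factor linked to bulge self-renewal, had a mean normalized count of 1307, at percentile 89.2. Because its annotated exons cover only 1811 bases, its level per kilobase was 722, rank 6 of the 10 members. Its library values were 1296, 1309, 1325 and 1298 normalized counts from 1603, 1543, 1280 and 930 reads. The highest library was 1.02 times the lowest, and 0% of the 200 recovered genes nearest in mean level had a smaller ratio. Only T-box genes with a *Tbx* symbol were compared. Of the other 12 such genes 5 were listed at 0, and the highest was *Tbx6* with 19.1 per kilobase. *Tbx1* held 95.2% of the summed level per kilobase of the *Tbx* genes compared.

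*Nfib* (chr4:82290173-82506751) belongs to the nuclear factor I family, whose members *Nfib* and *Nfix* keep bulge chromatin in its stem cell state. Its mean normalized count of 12003 was the highest after *Cd34*, at percentile 99.3. Its exons are long, 14957 bases, and per kilobase it had 803, rank 4. All 4 family genes were above a mean of 50. *Nfix* had a mean of 4666 and 634 per kilobase, *Nfic* had 1599 and 245, and *Nfia* had 531 and 48.5. *Nfib* was therefore 1.27 times *Nfix* per kilobase, or 1.55 times with the longest transcripts, and held 46.4% of the family. The library values of *Nfib* and *Nfix* could not be recovered, and this gap too stands without a spread. *Nfic* had 1283, 1774, 1694 and 1646 normalized counts, lowest in library A.

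*Nfatc1* (chr18:80606205-80713071) codes for a calcium-responsive factor that holds bulge cells at rest. Its mean normalized count was 5639, at percentile 97.9, and its level per kilobase 759, rank 5. It did not lead its family. *Nfat5*, the member that responds to osmotic stress without calcineurin, had a mean of 16214 and 882 per kilobase, so that *Nfatc1* stood at 0.860 times *Nfat5*. Among the calcineurin-dependent genes *Nfatc1* was the highest, ahead of *Nfatc3* with 122 per kilobase, *Nfatc4* with 28.0 and *Nfatc2* with 5.51. *Nfatc2* varied most of the 3 between libraries, with 81.7, 47.5, 74.5 and 29.3 normalized counts, whereas *Nfatc3* had 732, 807, 766 and 708.

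*Foxc1* (chr13:31806646-31810635) is a forkhead factor that returns activated bulge cells to rest. It had the lowest mean of the members, 1042 normalized counts at percentile 86.1, and 261 per kilobase. It was the only member with a single set of whole reads, 1566, 1049, 794 and 853, and no other solution. These are 1266 normalized counts in library A, 890 in B, 822 in C and 1191 in D. Libraries A and D were high and B and C low, with a gap between 890 and 1191. The highest library was 1.54 times the lowest, and 86.0% of the 200 recovered genes nearest in mean level, whose median ratio was 1.23, had a smaller ratio. *Foxc2* had 2 reads, both in library A.

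*Foxp1* (chr6:98925342-99522746), another forkhead factor that lengthens the resting phase, had a mean normalized count of 2771, at percentile 95.2, and 232 per kilobase, the lowest of the members with this length. Per kilobase of the longest transcript it had 395, above *Foxc1* with 261. Its library values were 3306, 2598, 2298 and 2881 normalized counts in A to D. Library A was highest and C lowest, at a ratio of 1.44. Of the 200 recovered genes nearest in mean level, 82.5% had a smaller ratio. *Foxp4* had 250 per kilobase and passed *Foxp1* in 3 of 4 libraries. In library A the order was the other way, with 277 per kilobase for *Foxp1* and 241 for *Foxp4*. The ranges of both genes over the 4 libraries overlapped. These ranges take in control and induced libraries together, so they are not a spread of replicates alone. The order also turned with the length used, since *Foxp1* was 1.28 times *Foxp4* per kilobase of the longest transcript. *Foxp2* had 8 reads in all and *Foxp3*, the factor of regulatory T cells, had 2 reads, both in library A.

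*Runx1* (chr16:92601466-92826074) is a Runt-domain factor that helps bulge cells to enter growth. Its mean normalized count was 3170, at percentile 95.8, and its level per kilobase 407. The library values were 3502, 3029, 2950 and 3198, highest in A and lowest in C. Their ratio of 1.19 was below the median of 1.24 over the 200 recovered genes nearest in mean level, of which 35.5% had a smaller ratio. *Runx3* and *Runx2* had 8.21 and 2.35 per kilobase, and *Runx1* held 97.5% of the family. Its binding partner *Cbfb* had 567 per kilobase, above *Runx1* in each of the 4 libraries without overlap, and its values of 1887, 1496, 1477 and 1738 normalized counts were also highest in A and lowest in C.

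**Figure D2:**
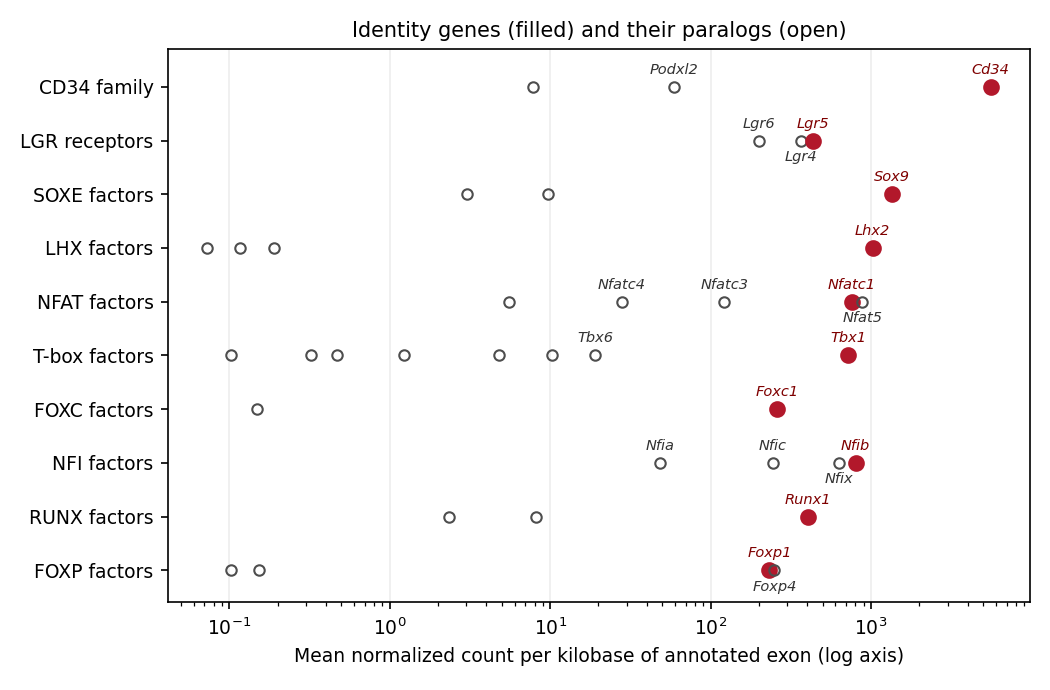
Mean normalized count per kilobase of annotated exon (log axis) for each member (filled red) and its paralogs (open), with 1 family a row; paralogs listed at 0 are not drawn. In 8 of 10 families the member is the highest gene, and the exceptions are *Nfat5* (882 per kilobase against 759 for *Nfatc1*) and *Foxp4* (250 against 232 for *Foxp1*).

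Over the 10 families, the member was the gene with the highest level per kilobase in 8. In *Cd34*, *Sox9*, *Lhx2*, *Tbx1*, *Foxc1* and *Runx1* the member held over 95% of the summed level of its family as compared here. In the LGR, NFI, NFAT and FOXP families a paralog came within 1.27-fold of the member per kilobase of all annotated exons. With the longest transcripts *Lgr5* stood 2.18 times above *Lgr4* and *Nfib* 1.55 times above *Nfix*.

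The order of the members per kilobase was *Cd34*, *Sox9*, *Lhx2*, *Nfib*, *Nfatc1*, *Tbx1*, *Lgr5*, *Runx1*, *Foxc1* and *Foxp1*. Members could be set against the spread over libraries, control and induced together, only where both had recovered reads. Among direct neighbours this held for *Runx1* with *Foxc1* and for *Foxc1* with *Foxp1*. *Lgr5* lies between *Tbx1* and *Runx1*, and *Nfib* and *Nfatc1* lie between *Lhx2* and *Tbx1*. *Tbx1*, at 716 to 731 per kilobase, lay above *Runx1*, at 378 to 449, with no overlap, and *Runx1* lay above *Foxc1*, at 206 to 317, in the same way. *Foxc1* and *Foxp1* overlapped, although *Foxc1* was the higher of the pair in each of the 4 libraries with this length. *Lhx2* lay above *Tbx1* with both of its solutions that keep each library within 1.5-fold of the mean, the lowest value being 762 per kilobase. Whether *Sox9*, *Nfib*, *Nfatc1* and *Lgr5* differ from their neighbours beyond the spread could not be assessed. Per kilobase of the longest transcript *Lhx2*, *Sox9* and *Nfib* came to 1393, 1343 and 1317, so that their order rests on the choice of transcript. The order of *Foxc1* (261) and *Foxp1* (395) also turned with that length, as did that of *Tbx1* (736) and *Lgr5* (925).

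**Figure D3:**
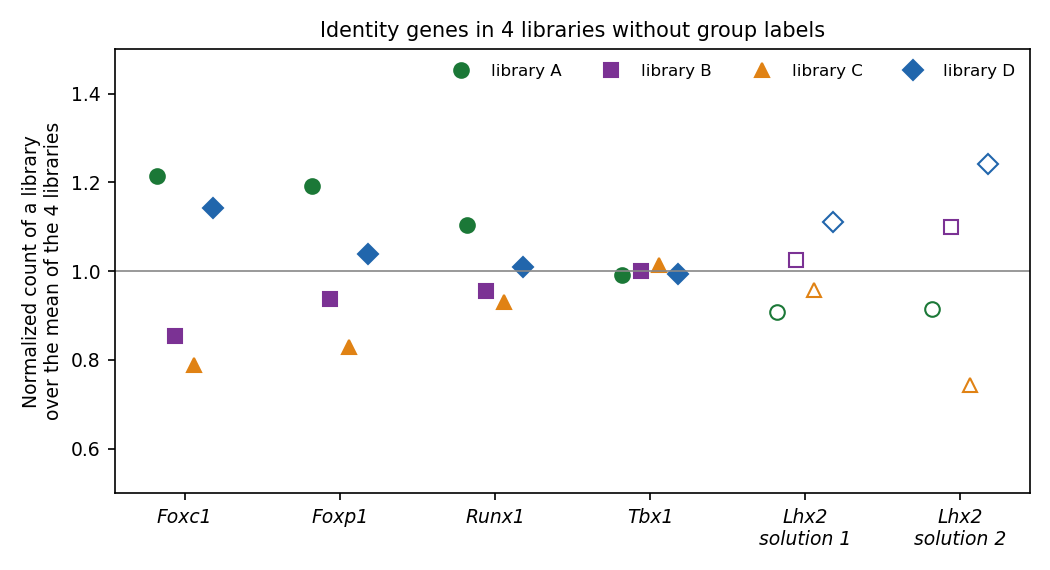
Normalized count of each library divided by the mean of the 4 libraries (linear axis, line at the mean) for the members whose reads were recovered; colours and shapes stand for libraries A to D, which carry no group label, and open symbols show the 2 solutions of *Lhx2*. *Foxc1* and *Foxp1* spread most among the 4 genes with 1 solution (1.54-fold and 1.44-fold from lowest to highest), and *Tbx1* least (1.02-fold).

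For *Tbx1*, *Foxp1* and *Runx1* the recovered values rest on the limit that each library lay within 1.5-fold of the mean. Without this limit 3, 10 and 18 sets of whole reads gave the same digits, and only *Foxc1* had 1 set in all. For *Lhx2* 18 sets gave the same digits, and the 2 shown are those within the limit. The genes nearest in mean level to *Foxp1* and *Runx1* were recovered under the same limit, so genes with a wider spread were left out. Those nearest to *Tbx1* were held to the limit only where more than 1 set was found. Among the 4 members with 1 solution the libraries did not fall in a common order. *Foxc1*, *Foxp1* and *Runx1* were highest in library A and lowest in library C, and in all 3 genes A and D lay above B and C. *Tbx1* was highest in C and lowest in A, at a ratio of only 1.02. The reads of *Cd34*, *Nfib*, *Nfatc1*, *Sox9* and *Lgr5* were not recovered, because at means above 3500 too many sets of whole reads give the same printed digits. In bulk RNA a lower value can come from fewer cells of a type or from less RNA per cell, and these cannot be told apart.

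Other genes known from bulge stem cells were read at widely differing levels. Of the 22 listed, all 22 were above a mean of 50, as were 10342 of 17044 genes, and their median level was 588 per kilobase against 740 for the members. *Krt15*, the keratin of the bulge, had 67049 per kilobase and *Col17a1*, a hemidesmosome collagen, had 19376. *Fst* (follistatin), *Itgb1*, *Dkk3* and *Krt24* followed with 3292, 1989, 1862 and 1840 per kilobase. Genes with a level close to the members were *Sfrp1* (1003), *Vdr* (798), *Gas1* (719), *Hopx* (543), *Barx2* (495) and *Cd200* (444 per kilobase). The lowest was the WNT target *Axin2* with 37.4, below the median of 39.4 over all genes. The transcription factors *Tcf7l2* and *Tcf7l1* had 71.4 and 178, below *Foxp1*, the lowest member with 232. *Bmp6* and *Fgf18*, which codes for a factor of the resting bulge, had 80.7 and 113.

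The labelled cell type was checked against markers of the gate and of the other cells of skin. The gate's positive markers *Cd34* and *Itga6* had means of 14575 and 12910, while *Ly6a*, which codes for the excluded Sca1, had 136, at percentile 52.1. *Ly6a* had 146, 159, 179 and 60.0 normalized counts in libraries A to D, lowest in D. Basal keratinocyte genes were the highest of all lists, led by *Krt5* (146090.4) and *Krt14* (90971 normalized counts). Both are expressed by bulge cells too.

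**Figure D4:**
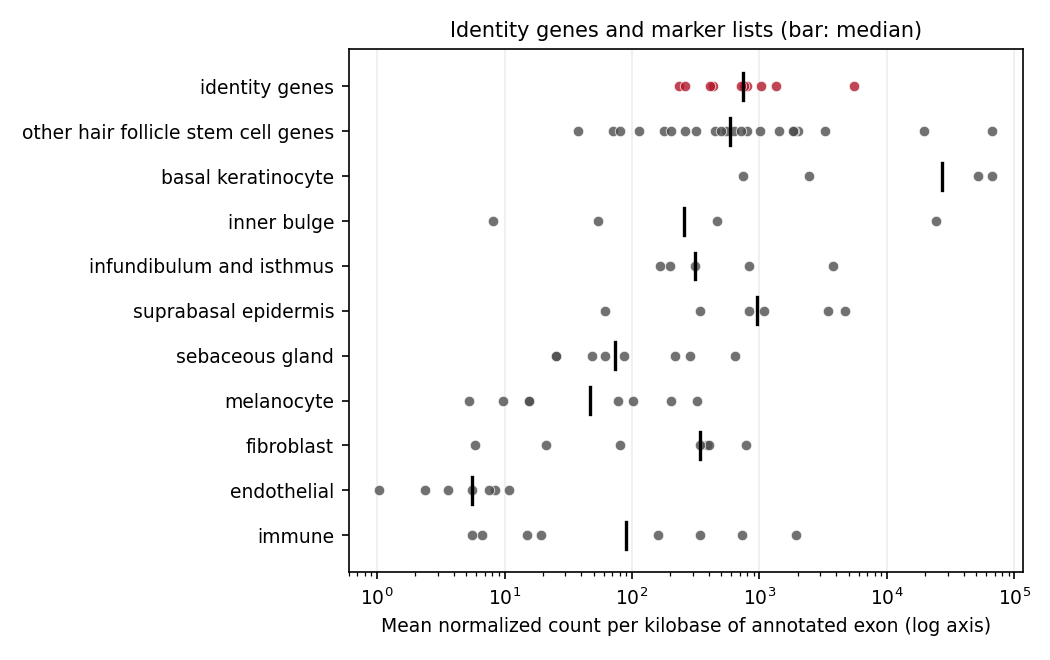
Mean normalized count per kilobase of annotated exon (log axis) for the 10 identity genes (red) and the genes of 10 lists (grey), each point a gene and the black bar the median. The identity genes, with a median of 740, lie far above the endothelial list (5.54) and overlap all the other lists. The basal keratinocyte (27100) and suprabasal (961) lists have higher medians than the identity genes.

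Markers of other cells were present at unequal levels. The 7 endothelial markers were low, with *Vwf* highest at a mean of 57.6 and *Tek* at 51.3, and their summed level was 130 to 251 normalized counts per library. *Cd34* is also made by endothelial cells, and their part in its mean of 14575 was not tested. The 8 immune markers included *Cd74* (2744) and *H2-Ab1* (1209), which act in antigen presentation, while the pan-leukocyte gene *Ptprc* had 87.6. *Runx1* is expressed by blood cells as well, at a mean of 3170 here. The part of blood cells in this mean was not tested. Without *Cd74*, whose reads were not recovered, the summed immune level was 1627, 3118, 2233 and 1407 normalized counts in A to D, highest in B. Fibroblast markers were led by *Col1a1* (5186) and *Col1a2* (4699), although *Pdgfra*, the receptor that defines these cells, had 39.5.

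Epidermal and gland markers were also read. The 6 suprabasal markers analysed were led by *Sbsn* (10749) and *Krt10* (7246), with *Lor* at 422, 623, 1183 and 187 normalized counts in A to D. The sebaceous list was led by *Scd1* (3085) and *Plin2* (995), and the melanocyte list by *Mitf* (2024) and *Dct* (498). The isthmus list was led by *Plet1* (7500) and *Lrig1* (1755), and the inner bulge list by *Krt6a* (54908) and *Timp3* (3766). The lowest genes of the suprabasal, sebaceous, melanocyte, isthmus and inner bulge lists were *Ivl* (116), *Awat1* (35.5), *Mlana* (9.77), *Ly6a* (136) and *Krt6b* (17.9). The value of *Krt6a* is uncertain because reads can be shared with its near-identical copy *Krt6b*. No marker analysed was listed at 0. Library D had the lowest summed level of the suprabasal (*Lor*, *Ivl* and *Krtdap* only), sebaceous, melanocyte, endothelial and immune markers with recovered reads. The highest library stood 1.69-fold to 2.97-fold above D in these lists. *Mitf*, the largest part of the melanocyte sum, was itself lowest in C (1846 against 2026 in D). Every other melanocyte marker was highest in C and lowest in D, as with *Dct* (1041 against 170), so the summed ratio of 1.69 understates their difference. The summed isthmus markers were also lowest in D, though by little (3941 against 3968 in A). The summed fibroblast markers were lowest in library A (3812 against 4044 in D), as was *Col3a1*, the largest part of that sum (2737 against 3424). *Dcn*, *Lum* and *Dpt* were each lowest in library D (445, 114 and 26.5), and *Pdgfra* in B (32.2 against 33.5 in D). The summed inner bulge markers were lowest in library B (115 against 163 in D). Of the members with recovered reads, none was lowest in library D. The part of these other cells in the levels of the members was not tested.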

How the data were processed

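RNA was sequenced from 2 control and 2 induced HF-SC libraries (150-nt paired-end reads). Per the labels and methods, the authors aligned with HISAT2 2.1.0, converted files with SAMtools 1.3.1, counted with HTSeq and compared groups with DESeq2. The methods give the genome as NCBI37/mm10 and the processing notes as mm10, and the annotation is not given in the sources used here. The deposited value used here, a signal, is the mean over all 4 libraries of read counts that the authors divided by size factors. The other 5 columns hold the authors' fold change, its error, statistic and p-values and were not used. Columns with values of single samples numbered 0, so no test between groups was run. The members and lists were chosen with earlier results of these data known.

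Since the mean is printed to 15 digits and is a sum of whole reads divided by size factors, reads per library were recovered. Genes with 1 read in 1 library gave the size factors 1.24, 1.18, 0.966 and 0.716 (libraries A to D). All sets of whole reads within 1.1 times the rounding of the last digit were found. For means below 1500, 15213 of 15450 genes had 1 set. For the other genes up to a mean of 3500, sets were limited to libraries within 1.5-fold of the mean, and 1026 of 1194 had 1. All 4 size factors equal the midpoint of 2 recovered genes' log ratios to the geometric mean over libraries, within 1e-15, as median-of-ratios scaling gives. Recovered reads totalled 7046350, 6281314, 5136928 and 3959386 over 16239 genes, which hold 41.8% of the summed mean, so these are not full depths. The libraries were put in no group. The steps were tested on simulated data, which also set the limit of 3500.

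Exon lengths (union over transcripts) and 3′UTRs are from GENCODE vM1 on NCBIM37, with a length for 16337 of the 17044 genes. Gene positions are from RefSeq on GRCm38.p6, and the miRNA sequence is from RefSeq on the same build. Genes named are the members, their paralogs and partners, stem cell genes, and the 2 highest markers of each list. *Ly6a*, *Krt6b*, *Lor*, *Ivl*, *Krtdap*, *Awat1*, *Mlana*, *Ptprc*, *Pdgfra*, *Col3a1*, *Dcn*, *Lum* and *Dpt* were added after their values were seen. *Flg* was not analysed here. Alternatives were other backgrounds, lengths, transcripts, matches, scalings and numbers of like genes, and leaving out each library. Python 3.11.15, numpy 2.4.6 and pandas 2.3.3 were used, with matplotlib 3.10.9 for figures.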

Additional observations from a re-analysis of the deposited data

How the results depend on the processing

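Of 19 alternatives, 14 kept their value within 1.5-fold or 1 percentile point. The number of members above 0, 10, is fixed by how they were chosen. The median percentile of the members, 96.5 among genes above 0, was 94.3 among genes with a mean above 50 and 95.1 per kilobase. The number of members with a miR-205 match, 2 in the longest 3′UTR, was 0 in the shortest 3′UTR, 4 with a 6-base match, which 34.4% of all genes with a 3′UTR held, and 0 with an 8-base match. The shortest 3′UTR holds fewer bases, and a longer match asks for more letters. Families led by a member went from 8 to 9 with the longest transcript or no length. Of the 4 members with 1 solution, 2 had a larger library ratio than the median of like genes under every scaling. The count stayed at 2 with each library left out. A median splits like genes evenly by definition, so 2 of 4 does not set the members apart. No paired analysis was possible because the recovered libraries carry no group or replicate label. Depth and printed digits limit the library values to 4 of 10 members, and the mean holds no error of its own.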
